A study of Mus musculus with 8 samples.

Results

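The Bcl2 family of survival and death genes was followed in mouse pro-B cells, an early stage of B cell development, through 10 genes: Bcl2, Bcl2l1, Mcl1, Bax, Bak1, Bcl2l11, Bid, Bad, Bbc3 and Pmaip1. The members were all probes that carried one of these symbols on the array, which gave 13 of 39429 probes and at least 1 probe for every gene. Bcl2l1, Mcl1 and Bad had 2 probes each. All 13 probes were well above background on all 8 arrays and none was saturated, so none was lost to the filter on dim probes.

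All cells were from BALB/c mice without Rag1, a recombinase gene without which B cells stop at the pro-B stage, so all groups shared this deletion. Adult bone marrow (BM) cells, sorted from 2 mice a sort per the labels, received either Lin28b or the empty vector pMIG. Fetal liver (FL) cells, pooled from litters at gestation day 16, received either let-7b or the empty vector MSCV. All cells grew on OP9 stromal cells with IL-7, and GFP+ cells, which carry the vector, were isolated 4 days later. Each of the 4 groups had 2 one-colour Agilent arrays, numbered 1 and 2. The labels speak of individual sorts, with wells of a sort divided between virus and empty vector, so p-values measure the spread between sorts and arrays and not between single animals. Tissue came with age, vector, slide and scan: the 4 BM arrays lay on 1 slide and the 4 FL arrays on 2 others. These cannot be told apart in any comparison of FL with BM.

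The Bcl2 family decides whether the mitochondrial outer membrane stays closed. Bcl2, Bcl2l1 (Bcl-xL) and Mcl1 are pro-survival proteins that hold the pore-forming effectors Bax and Bak1 in check. The BH3-only proteins Bcl2l11 (Bim), Bid, Bad, Bbc3 (Puma) and Pmaip1 (Noxa) bind and neutralise the pro-survival proteins, and some also activate Bax and Bak1 directly. IL-7, on which pro-B cells depend, is known to keep these cells alive partly through Mcl1 and Bcl2 and by restraining Bcl2l11 and Bad.

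Levels below are log2 of the signal relative to the 75th percentile of the same array, so 0 is a signal at that percentile. A difference between 2 groups is a log2 difference with limma's standard error, and a probe was called where its p, adjusted by Benjamini-Hochberg over all 28187 probes tested, was below 0.05. The 75th percentile signal was 1925 to 2234 on BM arrays and 271 to 488 on FL arrays, and the median SD between the 2 replicates of a group was 0.07 and 0.08 in BM against 0.28 and 0.22 in FL. The pro-B markers Cd79a, Pax5 and Ebf1 were detected on every array. The transgene was present where the labels put it: 1 of 2 Lin28b probes lay at 0.35 and 0.07 with the transgene, and on neither BM empty-vector array was it well above background (limma adjusted p = 0.00173). The other Lin28b probe, well above background on 1 of 2 BM empty-vector arrays, differed by 0.64 ± 0.28 and was not called (limma adjusted p = 0.999986). Mature let-7b was not measured.

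Of the 13 probes, 4 are shown here because they measured the members that were called higher in FL: both pro-survival genes that moved, and the BH3-only genes Bcl2l11 and Bad. Each is the 60-base array probe as deposited, read 5′ to 3′ in lower case. The last line is mature let-7b, the microRNA given to the FL cells, from RefSeq (GRCm38.p6), with its seed (bases 2 to 8) in capitals.
Bcl2: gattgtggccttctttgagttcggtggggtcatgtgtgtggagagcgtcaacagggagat
Bcl2l1: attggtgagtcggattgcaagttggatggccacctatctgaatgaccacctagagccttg
Bcl2l11: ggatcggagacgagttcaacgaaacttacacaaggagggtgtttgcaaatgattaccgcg
Bad: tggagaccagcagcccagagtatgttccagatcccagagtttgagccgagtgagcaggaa
let-7b: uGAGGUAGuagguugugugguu

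In the array's mm9 positions the Bcl2 probe lies at chr1:108608970-108609029 and the Bcl2l1 probe at chr2:152655185-152655244, both on the minus strand. The Bcl2l11 probe spans chr2:127972893-127983988 and the Bad probe chr19:7016918-7017403, both on the plus strand, far more genome than 60 bases, so each crosses at least 1 exon junction. Each of the 4 sequences holds at least 1 reading frame with no stop codon. No annotation of mm9 was used here, so exon and UTR positions are not given. The remaining Bcl2l1 probe lay at chr2:152606404-152606463 and the remaining Bad probe at chr19:7026323-7026382.

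The first comparison set FL against BM cells, both with empty vector, and asked how the fetal and adult cells differed in these genes. Bcl2, Bcl2l1, Bcl2l11 and Bad were higher in FL cells, Bid was lower, and Bax, Bak1, Mcl1, Bbc3 and Pmaip1 were not called. Bcl2l1 had the largest difference, 8.93-fold on 1 probe and 5.95-fold on the other. By count, 6 of 13 probes were called higher, against 39.2% of all probes tested, and 1 of 13 was called lower, against 19.7%. These shares were near the background, so it is the size of single differences, not their number, that the following values describe. The median difference of the 13 probes was 0.33 against 0.48 over all probes, and fewer cells of a type and less RNA per cell cannot be told apart in these bulk samples.

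**Figure D1:**
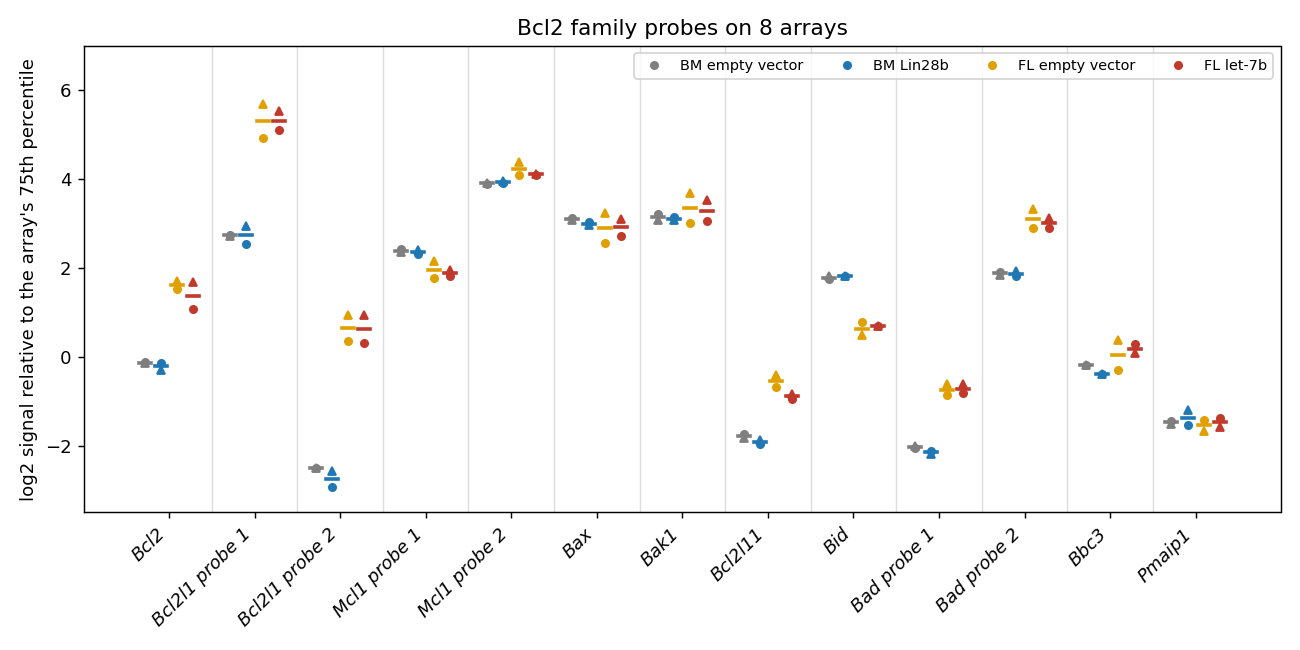
Levels of the 13 Bcl2 family probes on the 8 arrays, on the vertical axis as log2 signal relative to the array's 75th percentile. Circles are arrays numbered 1, triangles arrays numbered 2 and bars the group mean of 2 arrays; where a gene has 2 probes they are numbered along the genome. All FL points of Bcl2, Bcl2l1, Bcl2l11 and Bad lie above all BM points and those of Bid below, while within a tissue treated and empty-vector points mostly overlap.

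The scale matters for the tissue comparison, because the median probe itself differed by 0.48 between FL and BM. With quantile normalization, which takes that shift to 0.00, 6 member probes were called higher and 2 lower, against 24.5% and 27.2% of all probes; the added call was Mcl1. Over all probes, 66.5% of calls were higher in FL with the 75th percentile and 47.4% with quantile normalization. The 7 called member probes kept their direction with quantile normalization and after subtraction of the 0.48. Before any scaling, 11 of the 13 probes were dimmer on every FL array than on every BM array, and 1 was brighter. The share of all probes so ordered was not counted. The 75th percentile itself was lower in FL, 271 to 488 against 1925 to 2234 in BM. A higher level in FL thus means higher relative to the rest of the array.

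Bcl2l1, which encodes the pro-survival protein Bcl-xL, was the exception among the members before scaling. The signal of its probe shown above was 295 to 377 on the 4 BM arrays and 526 to 893 on the 4 FL arrays. Its levels were -2.50 and -2.50 in BM with empty vector, -2.92 and -2.57 with Lin28b, 0.36 and 0.95 in FL with empty vector, and 0.32 and 0.94 with let-7b. The FL and BM arrays were thus widely separated, and the probe lay at percentile 42.8 to 46.4 of the probes on BM arrays and 68.9 to 73.9 on FL arrays.

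Between the empty-vector groups this Bcl2l1 probe rose by 3.16 ± 0.29 (n = 2 per group, limma adjusted p = 0.000911), a fold of 8.93 with a 95% interval of 5.39 to 14.8. Of all probes tested, 96.2% had a lower difference. The second Bcl2l1 probe rose by 2.57 ± 0.31 (limma adjusted p = 0.00151), from 2.75 and 2.72 in BM to 4.92 and 5.69 in FL. Its unscaled signals overlapped between tissues, with 12915 to 15929 in BM and 14010 to 21526 in FL. Both probes gave the same direction, and their differences were 0.59 apart.

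Bcl2, the founding pro-survival member, lay at -0.12 and -0.13 in BM with empty vector, -0.13 and -0.29 with Lin28b, 1.52 and 1.70 in FL with empty vector, and 1.07 and 1.69 with let-7b. The FL arrays were all above the BM arrays, and the lowest of them was a let-7b array. Between the empty-vector groups Bcl2 rose by 1.74 ± 0.23 (n = 2 per group, limma adjusted p = 0.00199), a fold of 3.33 with a 95% interval of 2.26 to 4.92. Its signal before scaling was lower in FL, 881 to 1511 against 1691 to 2037 in BM.

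Mcl1, a short-lived pro-survival protein that lymphocytes need, gave opposite signs on its 2 probes. The probe at chr3:95466855-95466914 lay at 3.90 and 3.92 in BM and 4.10 and 4.38 in FL with empty vector, a difference of 0.33 ± 0.14 (limma adjusted p = 0.0866). The probe at chr3:95465543-95465602 lay at 2.42 and 2.36 in BM and 1.77 and 2.15 in FL, a difference of -0.43 ± 0.17 (limma adjusted p = 0.0688). On neither probe did the groups overlap, as was so for 82.6% of all probes, 53.8% higher and 28.8% lower in FL. The arrays were ordered in opposite ways by the 2 probes, with a gap of 0.76 between the 2 differences.

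No direction is therefore given for Mcl1. With eBayes set to trend and robust both probes were called, still in opposite directions (limma adjusted p = 0.0433 for the higher and 0.0337 for the lower), and with quantile normalization the lower one alone (-0.47, limma adjusted p = 0.0367). After subtraction of the median shift of 0.48 both differences were negative, -0.14 and -0.90.

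The effectors Bax and Bak1, which form the pore in the mitochondrial outer membrane, were not called between tissues. Bax lay at 3.12 and 3.07 in BM with empty vector and at 2.56 and 3.23 in FL, a difference of -0.20 ± 0.26 with a 95% interval of -0.84 to 0.43 (limma adjusted p = 0.514). Bak1 lay at 3.21 and 3.08 in BM and at 3.02 and 3.69 in FL, a difference of 0.21 ± 0.27 with a 95% interval of -0.46 to 0.88 (limma adjusted p = 0.525). For both genes the BM arrays fell between the 2 FL arrays. The intervals reached -0.84 for Bax and 0.88 for Bak1, so changes within them are not excluded.

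Among the BH3-only genes Bcl2l11 and Bad were higher and Bid lower in FL. Bcl2l11, which encodes Bim, the BH3-only protein that removes lymphocytes deprived of cytokine, lay at -1.73 and -1.82 in BM with empty vector, -1.95 and -1.87 with Lin28b, -0.67 and -0.41 in FL with empty vector, and -0.94 and -0.83 with let-7b. All FL arrays were above all BM arrays. The empty-vector groups differed by 1.24 ± 0.14 (n = 2 per group, limma adjusted p = 0.00142), a fold of 2.35 with a 95% interval of 1.84 to 3.01.

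Bad encodes a BH3-only protein that growth factor signalling keeps inactive by phosphorylation. The Bad probe shown above lay at -2.05 and -2.0 in BM and -0.86 and -0.62 in FL with empty vector, and its second probe at 1.92 and 1.85 in BM and 2.89 and 3.34 in FL. They rose by 1.29 ± 0.15 (limma adjusted p = 0.00139) and 1.23 ± 0.19 (limma adjusted p = 0.00325), a fold of 2.44 and 2.34. The FL-minus-BM differences of the 2 probes were 0.06 apart, well within either error.

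Bid, which caspase-8 cleaves to link death receptors to mitochondria, was the member that fell. Its levels were 1.75 and 1.83 in BM with empty vector, 1.83 and 1.83 with Lin28b, 0.78 and 0.49 in FL with empty vector, and 0.70 and 0.69 with let-7b. The FL arrays were all below the BM arrays, and the empty-vector difference of -1.15 ± 0.14 (n = 2 per group, limma adjusted p = 0.00166) is a 2.22-fold lower level. Only 10.2% of all probes tested had a lower difference, and the probe lay at percentile 79.9 to 80.7 of the probes on BM arrays and 70.1 to 72.7 on FL arrays.

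Bbc3 and Pmaip1, both known as p53 targets, were not called. Bbc3 lay at -0.19 and -0.19 in BM with empty vector and at -0.30 and 0.37 in FL, a difference of 0.23 ± 0.23 (limma adjusted p = 0.429). The 2 FL arrays lay on either side of the BM pair; without FL empty vector replicate 1 the difference was 0.56 and was called (limma adjusted p = 0.0225). Pmaip1 lay at -1.43 and -1.51 in BM and -1.41 and -1.67 in FL, a difference of -0.07 ± 0.18 with a 95% interval of -0.51 to 0.38 (limma adjusted p = 0.769).

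**Figure D2:**
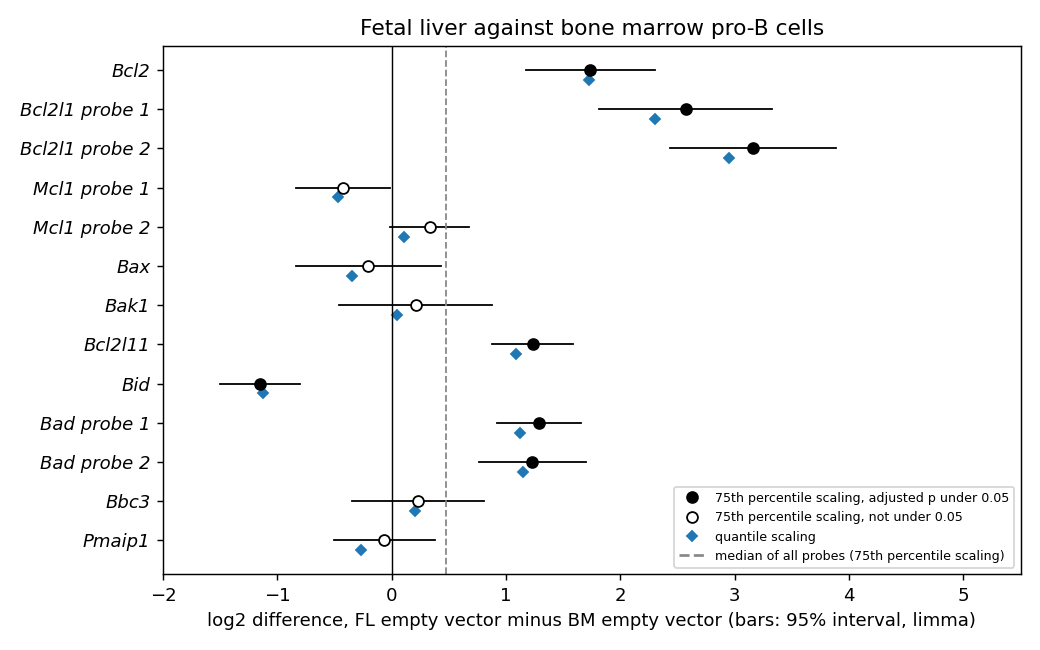
Difference between FL and BM cells with empty vector for each member probe, on the horizontal axis in log2 units, with limma's 95% interval (n = 2 arrays per group). Filled circles passed an adjusted p of 0.05, open circles did not, blue diamonds give the same difference with quantile normalization and the dashed line is the median of all probes, 0.48. Bcl2l1 (3.16 and 2.57) and Bcl2 (1.74) lie farthest to the right and Bid (-1.15) farthest to the left.

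Over all 8 arrays, treated ones included, 7 of 13 member probes had every FL array above every BM array, against 46% of all probes, and 2 had every FL array below, against 23.6%. The 2 lower ones were Bid and the Mcl1 probe with the negative difference. The seventh higher one was the other Mcl1 probe, next to the 6 that were called.

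The second comparison asked whether Lin28b, the RNA-binding protein that blocks maturation of let-7, altered these genes in adult BM cells. None of the 13 probes was called, against 0.00355% of all probes tested, a single probe. None of the 13 reached an unadjusted p of 0.05 either, as 3.41% of all probes did. The differences ran from -0.25 for the Bcl2l1 probe shown above to 0.11 for Pmaip1, with a median of -0.03 against -0.04 over all probes.

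Bcl2l1, with the most negative value, lay at -2.92 and -2.57 with Lin28b against -2.50 and -2.50 with empty vector, a difference of -0.25 ± 0.29 (95% interval -0.98 to 0.48, limma adjusted p = 1). Its second probe differed by 0.01 ± 0.31, so the 2 probes did not share a direction. Bbc3 lay at -0.39 and -0.39 with Lin28b against -0.19 and -0.19, a difference of -0.20 ± 0.23 (95% interval -0.78 to 0.38, limma adjusted p = 1). The replicates of Bbc3 lay close together and the groups did not overlap, but the error comes from the spread of all 8 arrays, which the FL arrays widen.

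Both Lin28b arrays lay below both control arrays for 5 probes, of Bad, Bax, Bbc3, Bcl2l1 and Bcl2l11, and above them for none, against 33.3% and 17.6% of all probes. A count of 5 of 13 is near the background. Bcl2l11 differed by -0.13 ± 0.14, Bcl2 by -0.09 ± 0.23 and Bid by 0.04 ± 0.14. The Mcl1 probes differed by 0.03 ± 0.14 and -0.03 ± 0.17, Bax by -0.09 ± 0.26 and Bak1 by -0.03 ± 0.27. With only the 4 BM arrays in the fit, whose own spread is smaller, still 0 of 13 probes were called.

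The third comparison asked whether let-7b altered these genes in FL cells. None of the 13 probes was called, against 0.0248% of all probes tested (7 probes), and none reached an unadjusted p of 0.05, against 9.59% of all probes. The median difference of the 13 probes was -0.03, against -0.05 over all probes, and 7 were negative and 6 positive, against 57.1% and 42.9% of all probes. Errors here are pooled with the BM arrays, whose replicates lay closer together, so they understate the spread of FL replicates.

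Bcl2l11 came closest. It lay at -0.94 and -0.83 with let-7b against -0.67 and -0.41 with empty vector, a difference of -0.34 ± 0.14 with a 95% interval of -0.70 to 0.01 (unadjusted p = 0.0564, limma adjusted p = 0.536). It was the single member probe with both let-7b arrays below both controls, which 18.2% of all probes showed. The difference was -0.27 on the second slide and -0.41 on the third, and it ran from -0.47 to -0.09 in the 17 settings run. Bcl2l11 was picked by its p, and groups that do not overlap must give the same sign on each slide. These signs thus add no support to the difference.

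Bcl2 and Bbc3 had different values on the 2 slides. Bcl2 differed by -0.45 on the second slide and by -0.00 on the third, with -0.23 ± 0.23 from the fit (limma adjusted p = 0.817). Bbc3 differed by 0.58 on the second slide and by -0.28 on the third, with 0.15 ± 0.23 from the fit (limma adjusted p = 0.900). For Bbc3 the sign thus differed between the slides. So did the signs of Bak1, Bax and Bid and, on a single probe of each, those of Bad, Bcl2l1 and Mcl1.

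For the rest, the Bcl2l1 probes differed by -0.03 ± 0.29 and 0.00 ± 0.31, Bax by 0.02 ± 0.26 and Bak1 by -0.06 ± 0.27. The Mcl1 probes differed by -0.13 ± 0.14 and -0.07 ± 0.17. Among the other BH3-only genes Bid differed by 0.06 ± 0.14, Bad by 0.02 ± 0.15 and -0.09 ± 0.19, and Pmaip1 by 0.07 ± 0.18. For Bcl2l1, with the largest tissue difference, the 95% interval with let-7b was -0.76 to 0.70 on the probe shown above. Changes within it are not excluded, and its ends are not a limit of detection.

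**Figure D3:**
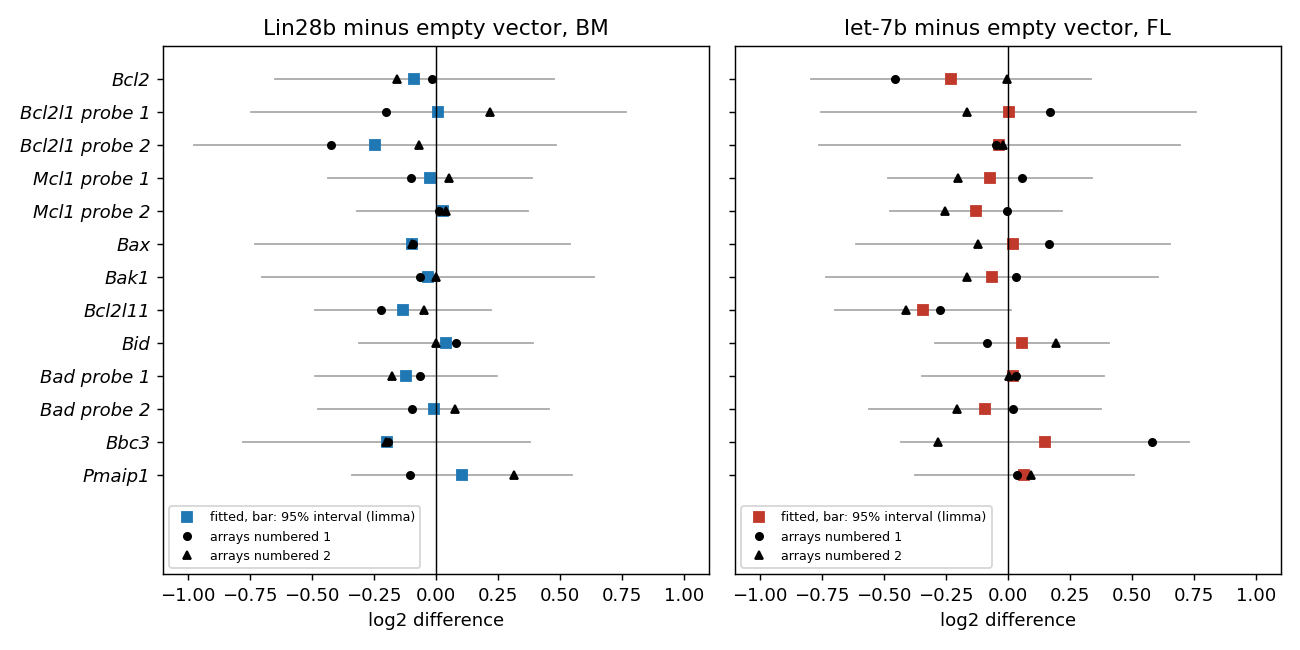
Differences for the 13 member probes with Lin28b in BM cells (left) and with let-7b in FL cells (right), on the horizontal axis in log2 units. Squares are the fitted values with limma's 95% interval (n = 2 arrays per group), circles the difference between arrays numbered 1 and triangles that between arrays numbered 2. All intervals span 0; Bcl2l11 with let-7b (-0.34) comes closest to leaving it, and the arrays of Bbc3 with let-7b lie at 0.58 and -0.28.

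The 2 treatments share no array, so the let-7b difference minus the Lin28b difference was tested directly, as a contrast. None of the 13 probes was called, against 0.0071% of all probes, and none reached an unadjusted p of 0.05, against 6.78%. The values ran from -0.21 ± 0.20 for Bcl2l11 (limma adjusted p = 0.997) to 0.35 ± 0.33 for Bbc3 (limma adjusted p = 0.997). The Lin28b and the let-7b comparison each share their control arrays with the tissue comparison. For Bcl2l11 the 3 values were -0.13 with Lin28b, -0.34 with let-7b and 1.24 between tissues; for Bcl2 they were -0.09, -0.23 and 1.74.

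Within FL, several members differed more between the arrays numbered 1 and 2, which lay on different slides, than between let-7b and empty vector. The Bcl2l1 probe shown above was higher on the array numbered 2 by 0.59 with empty vector and by 0.62 with let-7b, and its second probe by 0.76 and 0.43. Bax was higher by 0.67 and 0.39 and Bak1 by 0.67 and 0.47. In these 4 of 13 probes, of Bcl2l1, Bax and Bak1, the array numbered 2 exceeded the other by over 0.3 in both groups, against 9.95% of all probes. In 0 of 13 it was lower by that much, against 20.7% of all probes. This comparison was chosen after the data were seen, so its counts describe and do not test. With quantile normalization, an alternative added after the data were seen, the counts were again 4 and 0, against 13% and 16%.

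Slide, scan, replicate number and, per the labels, possibly the sort came together here and cannot be told apart. In BM, where the 4 arrays shared a slide, Bax and Bak1 differed between arrays 1 and 2 by -0.05 and -0.12 with empty vector and by -0.05 and -0.06 with Lin28b. Bcl2l1 differed there by -0.01 with empty vector and 0.35 with Lin28b on the probe shown above. The standard errors of Bcl2l1, Bax and Bak1, 0.26 to 0.31, were the largest among the members.

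The genes around the family were read from 5 lists, with 1 probe for each gene, the brightest kept. The lists held 71 genes, of which 65 were tested, Bcl2l10, Hrk and the Bcl2a1 genes not being among them. Between tissues 20 were called higher and 16 lower in FL, against 40.2% and 19.4% of all genes. With quantile normalization the counts were 18 and 19, with 18 and 15 shared by both scalings. With Lin28b, with let-7b and in their contrast 0 of the 65 were called in limma's test, against 0%, 0.0307% and 0.00439% of all genes. At an unadjusted p under 0.05 the counts were 0, 8 and 4 of 65, against 3.56%, 9.8% and 6.92% of all genes.

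Among the other Bcl2 family genes 6 of 10 were called higher in FL and 1 lower, beside 40.2% and 19.4% of all genes. Their median difference was 0.98 beside 0.53 over all genes, 1 probe a gene. Bmf, a BH3-only gene whose protein is held on the cytoskeleton, lay at -1.84 and -1.81 in BM and at 2.33 and 2.93 in FL with empty vector, and rose by 4.45 ± 0.29 (limma adjusted p = 0.000573), more than any member. Bnip3 and Bnip3l, BH3-like proteins of mitophagy that hypoxia is known to induce, rose by 3.29 ± 0.16 (limma adjusted p = 0.00039) and 2.16 ± 0.13 (limma adjusted p = 0.000531). Every one of the 3 Bnip3 and 4 Bnip3l probes was called higher. The one that fell was Bcl2l2 (Bcl-w), a pro-survival gene, by 1.95 ± 0.18 on the log2 scale (limma adjusted p = 0.000886); its other probe was not called (-0.64).

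In the mitochondrial death pathway downstream of the family 3 of 20 genes were called higher and 7 lower, beside the same 40.2% and 19.4%. The median was -0.20 beside 0.53. Cycs, which encodes cytochrome c, fell by 1.67 ± 0.15 (limma adjusted p = 0.000863), with 2 of its 3 probes called lower and the third at 0.77 and not called. Apaf1, the scaffold of the apoptosome, fell by 1.32 ± 0.16 (limma adjusted p = 0.00157). Birc3, an inhibitor of apoptosis protein, rose by 0.94 ± 0.12 (limma adjusted p = 0.00179). These counts depend on the probe kept for a gene: Dffa, which encodes the inhibitor of the caspase-activated DNase and was named after its values were seen, was counted as not called (-0.18), while 2 of its 3 probes were called higher, up to 1.49. Of 21 genes of the 5 lists with several probes, 10 had some probes called and some not, and 0 had calls in both directions.

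In the death receptor pathway 0 of 9 genes were called higher and 3 lower, beside 40.2% and 19.4% of all genes. The median was 0.11 beside 0.53. Casp8, the caspase that cleaves Bid, lay at 2.24 and 2.35 in BM and 0.79 and 0.58 in FL with empty vector, and fell by 1.61 ± 0.15 (limma adjusted p = 0.000886). Its inhibitor Cflar fell by 0.60 ± 0.19 (limma adjusted p = 0.0381) and the receptor Tnfrsf10b by 0.67 ± 0.22 (limma adjusted p = 0.0426). Of 3 Cflar probes, that one alone was called.

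Among the upstream regulators, 11 of 21 were called higher and 3 lower, beside 40.2% and 19.4% of all genes, with a median of 0.64 beside 0.53. Pim2, a survival kinase that cytokines induce, lay at -2.66 and -2.67 in BM and at -0.26 and 0.13 in FL with empty vector, and rose by 2.60 ± 0.20 (limma adjusted p = 0.000678). Foxo3, a transcription factor known to induce Bcl2l11 and Bbc3, rose by 1.94 ± 0.17 (limma adjusted p = 0.000795), though by 0.95 with quantile normalization. Its probe was dim, at -5.87 and -5.63 in BM and -3.70 and -3.91 in FL with empty vector, so its rise depends strongly on the scaling. Jak3, which signals from the IL-7 receptor, rose by 1.71 ± 0.18 (limma adjusted p = 0.00114). Of 5 genes of Mcl1 turnover 0 were called higher and 2 lower, the ubiquitin ligases Btrc (-0.89 ± 0.24, limma adjusted p = 0.0212) and March5 (-0.39 ± 0.13, limma adjusted p = 0.0399). With quantile normalization March5 was not called (-0.38, limma adjusted p = 0.0602), Btrc was, and Huwe1 and Usp9x were called lower as well (-0.43 and -0.50).

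**Figure D4:**
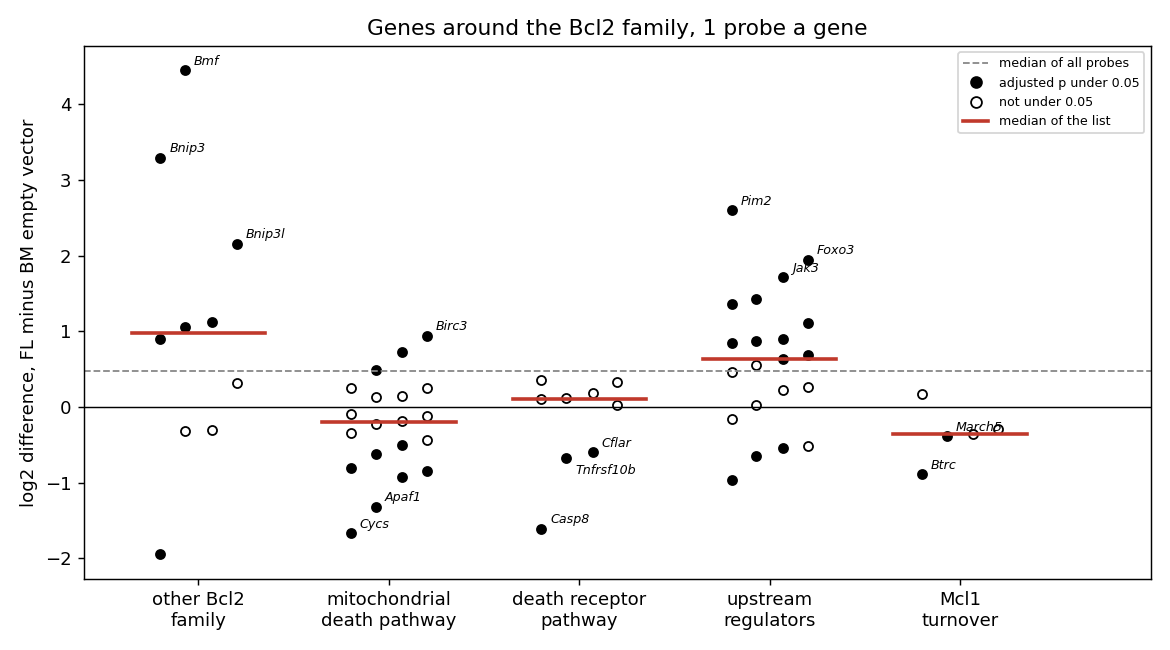
Difference between FL and BM cells with empty vector for the 65 genes around the Bcl2 family, 1 probe a gene, on the vertical axis in log2 units. Filled circles passed an adjusted p of 0.05, red bars are list medians and the dashed line is the median of all probes, 0.48. With 1 probe a gene that median is 0.53. Bmf, Bnip3 and Bnip3l are the highest of the other family genes, and the list medians run from -0.36 for Mcl1 turnover to 0.98 for the other family genes.

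With let-7b, Pim2 had the smallest p among the 65 genes. It lay at -1.39 and -1.05 with let-7b against -0.26 and 0.13 with empty vector, a difference of -1.15 ± 0.20 that was not called (limma adjusted p = 0.173). Both let-7b arrays lay below both FL controls, as 18.2% of all probes showed, and above all BM arrays. Pim2 was picked by its p, so this order adds no support to the difference. Bcl2l2 differed by 0.59 ± 0.18 (limma adjusted p = 0.402) and Htra2, a mitochondrial protease released in apoptosis, by -0.56 ± 0.17 (limma adjusted p = 0.408).

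Marker levels differed between the groups as well. The calls between tissues stand beside 40.2% of all genes called higher in FL and 19.4% called lower. All 12 pro-B markers reported here were detected on every array; 6 were called higher and 2 lower in FL with empty vector, and their summed signal was 866 to 1157 in FL and 477 to 510.2 in BM. Summed over the 9 myeloid marker probes tested, the signal relative to the 75th percentile was 28.9 to 61.2 in FL and 9.15 to 9.61 in BM with empty vector, with 6 or 7 of the 9 detected in FL and 7 in BM; 4 were called higher and 1 lower, and Lyz2 was not well above background in FL. Itgam alone, not called (1.86 ± 0.66, limma adjusted p = 0.0537), gave 17.1 to 55.6 of that sum in FL and 8.28 to 8.73 in BM; without it the sums were 5.62 to 11.7 and 0.87 to 0.88. For the 6 T and NK markers the sums were 12.8 to 19.3 in FL and 5.71 to 5.89 in BM, with 5 called higher. The sum of the 13 stromal markers was 6.10 to 8.03 in FL and 17.8 to 19.4 in BM, with 2 called higher and 7 lower. With quantile normalization, where 24.5% of all probes were called higher and 27.2% lower, 3 myeloid markers were higher and 1 lower. For T and NK markers the counts were then 4 and 0, and for stromal markers 0 and 7. Vpreb1, the brightest pro-B marker in FL, differed by 1.18 between tissues, but by -0.48 with quantile normalization. All sums are on the 75th percentile scale. With Lin28b the stromal sum was 25.4 to 35.3, and with let-7b 8.33 to 13.1, so it was higher on both treated arrays of each tissue. In limma's test 0 stromal markers were called with either treatment. With Lin28b 8 of 13 had an unadjusted p under 0.05 and with let-7b 4, against 3.56% and 9.8% of all genes. Their part in the treatment values of the members was not tested.

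The hepatocyte genes Alb, Afp, Apoa1 and Ttr were not kept by the filter on dim probes, and 3 of 6 erythroid genes were kept, with sums of 0.152 to 0.256 in FL and 0.115 to 0.118 in BM. Of these 3, 1 was called higher and 0 lower, but with quantile normalization 0 higher and 1 lower. Klf1, part of those sums, was not well above background on any FL array. The part of these markers in the tissue differences of Bcl2, Bcl2l1, Bcl2l11, Bad and Bid was not tested.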

How the data were processed

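RNA was measured on 8 one-colour Agilent arrays. The deposited spot intensities were background-corrected by Agilent Feature Extraction 9.5.3.1, per the file headers. A log2 table normalized by the authors came with them. How it was normalized is not stated in the labels or headers; its column medians were 7.22 on BM arrays and 6.16 on FL arrays, so it was used within a tissue only, as an alternative. Its centring is unknown.

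Of 44397 spots 1377 controls were left out. Processed signals were divided by the array's 75th percentile and put on a log2 scale. Copies of a probe were averaged. Of 39429 probes, 354 with an outlier spot and 10888 well above background on fewer than 2 arrays were left out, which kept 28187. limma 3.58.1 (lmFit, eBayes; R 4.3.3) fitted 4 group means over the 8 arrays, with Benjamini-Hochberg adjustment over all probes tested, in the gene lists too. The smallest two-sided p of an exact permutation test with 2 against 2 arrays is 0.333, so calls rest on the spread limma shares between probes (prior degrees of freedom 1.72, residual 4). Precision is limited by the number of arrays. The fit was also run on simulated data, with noise drawn separately for each array. Those data lacked the deviation that FL arrays of a slide shared, so they cannot check the errors for it. Genes of the lists were matched by accession, symbol or synonym to a RefSeq table (GRCm38.p6). All 10 members are named; of each list, up to 3 genes of smallest adjusted p, beside Bcl2l2, Dffa, Huwe1 and Usp9x, named after their values were seen. The counts and sums of pro-B markers leave out 1 marker that is not reported here. The members and lists were chosen with earlier results of these data known. Alternatives were normexp background correction (offset 50), quantile normalization, no filter, eBayes with trend and robust, a replicate block, slide as a random block, 1 probe a gene, 1 tissue's arrays, the authors' table and leaving out each array.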

Additional observations from a re-analysis of the deposited data

How the results depend on the processing

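The 7 probes called between tissues were called in the same direction in all alternatives that tested them: Bcl2 1.47 to 1.83, Bcl2l1 2.86 to 3.45 and 2.19 to 2.96, Bcl2l11 1.09 to 1.36, Bad 1.12 to 1.41 and 1.00 to 1.45, Bid -1.29 to -1.01. Between tissues 5 (1 probe a gene) to 9 probes were called. There were 9 with trend and robust, through both Mcl1 probes, and 9 without FL empty vector replicate 1, through 1 Mcl1 probe (0.47, limma adjusted p = 0.0212) and Bbc3; without FL empty vector replicate 2 the other Mcl1 probe joined (-0.62, limma adjusted p = 0.0158). With Lin28b, with let-7b and in their contrast 0 probes were called in all alternatives; in limma's main test 0 of 13 had an unadjusted p under 0.05. Counted once for each probe in each alternative, uncalled values changed sign in 11 of 218 cases with Lin28b and 23 of 218 with let-7b. In the contrast they did so in 30 of 192 cases and between tissues in 6 of 89.

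The replicate number as a block gave 7 calls between tissues and 0 in the others. Same-numbered arrays deviated together in FL, where they shared a slide (correlation 0.51), and not in BM (-0.06), so the numbers are not shown to pair the sorts. With slide as a random block (correlation 0.58) 7 were called. Errors pooled over both tissues are too wide for BM and too narrow for the spread of FL replicates. With let-7b, 2704 of all probes had an unadjusted limma p under 0.05 in the main fit. With only the FL arrays 920 did, and with slide as a random block 4756. The 2 arrays a group set the limit on what could be detected.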
